A study of Bos taurus with 30 samples.

Results

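The 8 mature miRNAs described here come from a block of miRNA genes inside CLCN5, the X-linked gene of an endosomal chloride and proton exchanger. They were chosen by name alone, as the rows of the deposited table numbered miR-188, miR-362, miR-500, miR-501, miR-502, miR-532 or miR-660 with any letter or arm, and make up 8 of the 1030 mature miRNA names. There were 0 rows for miR-501. The 8 are bta-miR-188, bta-miR-362-5p, bta-miR-362-3p, bta-miR-500, bta-miR-502a, bta-miR-502b, bta-miR-532 and bta-miR-660, written below without the prefix for cattle, and all 8 passed the filter on low counts that left 419 miRNAs for testing. The table names an arm of the hairpin for miR-362 only.

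A miRNA inside a host gene is cut from a hairpin in the primary transcript, and neighbouring hairpins on 1 primary transcript can be released together. The mature strand then guides Argonaute to messenger RNAs that pair with its seed, which lowers their translation or stability. Several hairpins of this block resemble one another and are regarded as products of local duplication. By RefSeq's gene table for ARS-UCD2.0, 8 miRNA genes lie within the span of CLCN5, in the order MIR532, MIR188, MIR502A-2, MIR502B, MIR362, MIR500, MIR660 and MIR502A-1, and all 8 of them match a member. MIR362 gives both miR-362 arms, whereas miR-502a has a gene on either side of MIR502B.

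The study sequenced small RNA of the anterior pituitary, where the gland makes its tropic hormones, in 30 Holstein-Friesian bull calves that were 12 weeks old, each giving 1 library. From the age of 2 weeks 15 of them were on a high plane of nutrition (HI), which supplied 1.5 kg of milk replacer in 10 litres daily and unrestricted concentrate. The other 15 were on a moderate plane (MOD), with 0.5 kg of milk replacer in 4 litres and 0.5 kg of concentrate. Several farms supplied the animals, and farm, sire and library batch are not among the labels. Whole tissue was used, so that fewer cells of a type and less of a miRNA per cell cannot be told apart.

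Reads on miRNAs ranged from 6650492 to 11086524 per library, and the values are CPM, reads relative to the size of the library after scaling by the authors with TMM factors. In these units 3 reads, the upper limit for a miRNA without a read, correspond to 0.266 to 0.419, which covers counting error only. The endocrine miRNAs miR-375 and miR-7 were abundant in every library, with lowest values of 103334 and 11597 CPM, and miR-122 of liver did not exceed 0.209 CPM. A total of 9 libraries, those at the top of the label numbering (5 HI and 4 MOD calves), stood apart from the other 21 (10 HI and 11 MOD). The boundary was set on miR-99b, which was between 6407 and 9694 CPM in the 9 and between 4116 and 5185 CPM in the 21. What the label order stands for is not given, so the diets are also compared within these sets.

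Within the cluster miR-660 held most of the reads. Summed over the 8 members, the cluster was at 8163 to 21111 CPM (median 12025), or 0.841% to 2.15% of the miRNA reads of a library. Of that sum miR-660 made up 80.3% ± 1.84 and miR-532 16.9% ± 1.74 (SD, n = 30 libraries), and each of the other 6 had a mean share of at most 0.874%. A mature miRNA is read whole, so levels need no division by length, but adapters are not joined to every miRNA with equal ease and the order of levels is one of reads.

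That order was the same in every library for the most abundant members but not for all. The level of miR-660 was above that of miR-532 in 30 of 30 libraries, by a median ratio of 4.85 (3.71 to 6.34). The gap below was the widest of the series of 8, as miR-532 was above miR-502b in 30 of 30 libraries with a median ratio of 19.9 (13.2 to 26.3). The order of miR-502b and miR-502a was not fixed, as miR-502b was higher in 22 of 30 libraries. The level of miR-502a was above that of miR-500 in 30 of 30 libraries, and miR-500 was above miR-362-3p in 29 of 30. The arms of miR-362 could not be ordered, as the 3p arm was higher in 16 of 30 libraries, and miR-362-5p was above miR-188, the lowest of the 8, in 24 of 30.

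**Figure D1:**
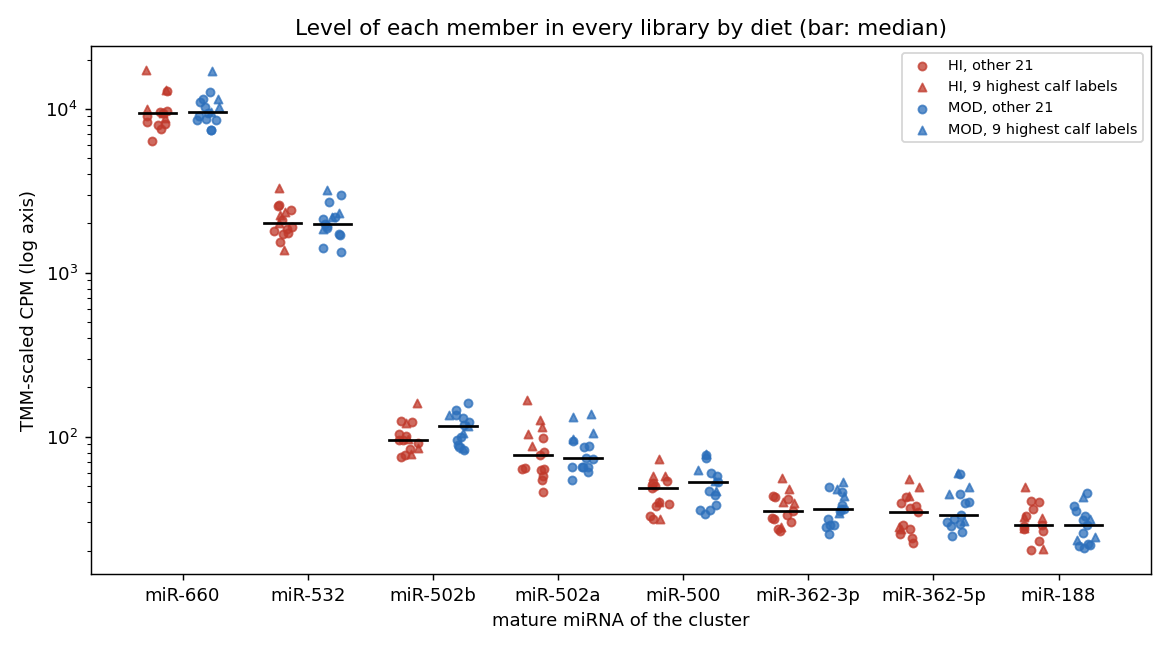
Level of each of the 8 members in all 30 libraries, as TMM-scaled CPM on a log axis, with HI calves in red, MOD calves in blue, triangles for the 9 libraries with the highest calf labels, and a bar at each diet's median. The HI and MOD points of every member overlap, and the members span from about 20.3 CPM for miR-188 to 17278 CPM for miR-660.

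The comparison of HI with MOD asks whether the plane of nutrition in early life was accompanied by a change in these miRNAs. None of the 8 passed FDR < 0.1, and 0 of the 8 had an unadjusted p under 0.05, in limma on log2(CPM + 1) with Benjamini-Hochberg adjustment over the 419 miRNAs tested. Over all tested miRNAs 15 passed, or 3.58%, and 2, or 0.477%, also had a fold change above 1.5. The median log2 fold change of the 8 was -0.05, beside 0.02 over the 419. The 95% intervals of all 8 lay between -0.45 and 0.32, within the log2 fold change of 0.58 that corresponds to a fold of 1.5 in either direction.

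The abundant members had the same medians in the diets to within a small part of their spread. Expression of bta-miR-660, reported in cancer cells to act on MDM2, the negative regulator of p53, was 6390 CPM in the lowest, 9459 in the median and 17278 in the highest HI library, and 7390, 9522 and 16944 CPM in MOD libraries. The lowest library was an HI one and so was the highest, and the MOD median was exceeded by 6 of the 15 HI calves. The log2 fold change was -0.06 (95% interval -0.30 to 0.18, FDR = 0.926). Expression of bta-miR-532, whose 5p arm has been studied as a regulator of the transcription factor RUNX3, ran from 1381 to 3271 CPM (median 2019) in HI and from 1331 to 3211 CPM (median 1973) in MOD libraries. The ranges nearly coincided, the MOD median was exceeded by 8 of 15 HI calves, and the log2 fold change was 0.0043 (-0.24 to 0.25, FDR = 0.984).

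Both miR-502 species and miR-500 were far less abundant than miR-660 and miR-532. Expression of bta-miR-502b was 75.4, 95.9 and 160 CPM in the lowest, median and highest HI library and 82.8, 117 and 161 CPM in MOD libraries. The MOD median was exceeded by only 4 of 15 HI calves, yet the ranges overlapped almost wholly, and the log2 fold change of -0.18 (-0.39 to 0.04) had an FDR of 0.615. It was the lowest FDR among the members. Expression of bta-miR-500 was 31.5, 48.7 and 73.5 CPM in HI and 33.6, 53.0 and 77.9 CPM in MOD libraries, again with 4 of 15 HI calves above the latter median, and its log2 fold change was -0.18 (-0.45 to 0.09, FDR = 0.721). Expression of bta-miR-502a ran from 46.2 to 168 CPM (median 77.2) in HI and from 54.3 to 138 CPM (median 73.8) in MOD libraries. It had the widest spread of the 8, and its log2 fold change was -0.03 (-0.36 to 0.29, FDR = 0.970). In 19 libraries the reads of miR-502a came out as a whole number plus a fraction, and the deposited value does not separate its genes.

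The least abundant members were miR-362, from whose hairpin both arms are recorded, and miR-188, studied for its part in the choice of marrow stromal cells between bone and fat. The 5p arm of miR-362 was at 22.5 to 55.5 CPM (median 34.5) in HI and at 24.7 to 60.2 CPM (median 33.3) in MOD libraries, with a log2 fold change of -0.12 (-0.40 to 0.17, FDR = 0.873). The 3p arm was at 26.7 to 56.1 CPM (median 35.2) and at 25.6 to 52.9 CPM (median 36.3), with a log2 fold change of -0.02 (-0.25 to 0.21, FDR = 0.983). Neither arm separated the diets, as the MOD median was exceeded by 8 and 7 of the 15 HI calves respectively. Expression of bta-miR-188 was 20.3 to 49.5 CPM (median 28.8) in HI and 20.9 to 45.4 CPM (median 28.8) in MOD libraries, from 178 to 558 reads, and its log2 fold change was 0.07 (-0.19 to 0.32, FDR = 0.920).

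With a block for the 9 libraries the log2 fold changes of the 8 ran from -0.20 to 0.06 and the lowest FDR was 0.545. Within the 21 libraries they ran from -0.23 to 0.06 (lowest FDR = 0.494) and within the 9 from -0.24 to 0.07 (lowest FDR = 0.890). In the 9 libraries alone the intervals were wider, such as -0.77 to 0.29 for miR-500 and -0.47 to 0.61 for miR-188, and these do not exclude a fold of 1.5. The test of the interaction of diet and set passed for 0 of the 8 members (lowest FDR = 0.875 in limma, and 0 of 8 at an unadjusted p under 0.05). Over the 419 it passed for 0, with 21 at an unadjusted p under 0.05.

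**Figure D2:**
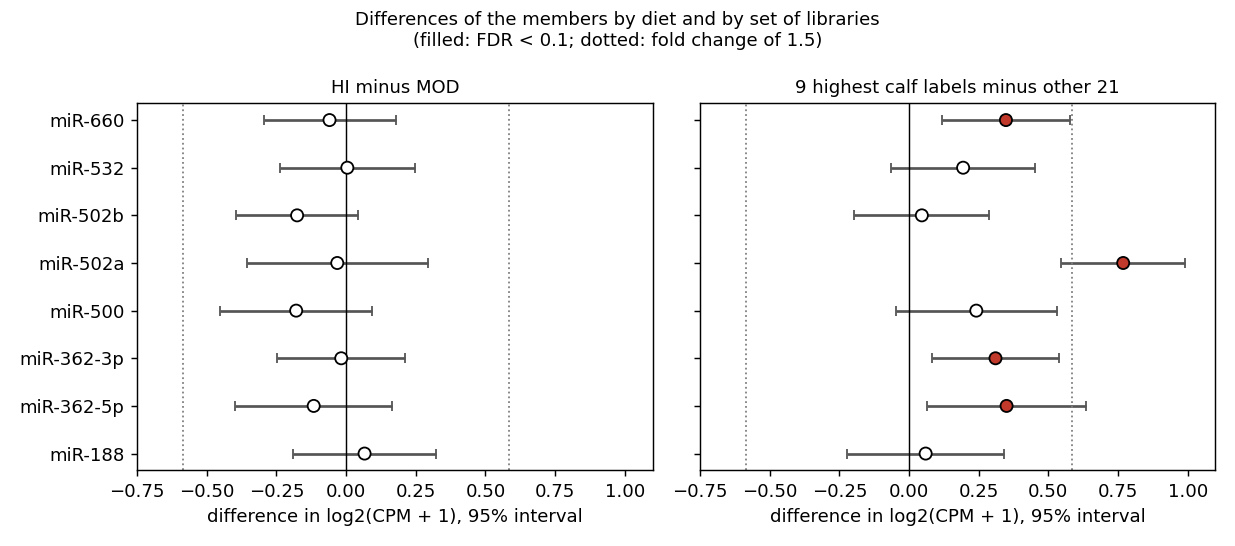
Difference of each member on the log2(CPM + 1) scale with its 95% interval from limma, between HI and MOD calves on the left and between the 9 libraries with the highest calf labels and the other 21 on the right, with filled points at FDR < 0.1 and dotted lines at a fold of 1.5. On the left 0 of 8 points are filled and each interval crosses 0, and on the right 4 of 8 are filled, with miR-502a at 0.77.

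A ratio between members of the same library does not depend on how libraries are scaled. The ratio of miR-362-5p to miR-362-3p was 0.707 in the lowest, 0.950 in the median and 1.21 in the highest HI library, and 0.787, 1.03 and 1.19 in MOD libraries. The ranges overlapped, and the mean log2 ratios of -0.10 ± 0.24 in HI and -0.0016 ± 0.15 in MOD calves (SD, n = 15 each) differed by -0.10 (SE 0.07, two-sided permutation test of 1e+05 resamples, p = 0.186). It was -0.11 within the 21 libraries, where an exact permutation test gave p = 0.254. In the 9 libraries it was -0.10 and the exact permutation p was 0.587. Of the 28 ratios between members, 0 separated HI from MOD calves without overlap, as did 0% of the 87153 ratios between the 418 tested miRNAs that were above 0 in every library.

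The members varied together from calf to calf, on both diets. In 8 of the 30 libraries all 8 members were above their own medians over the 30, in another 8 none was, and 3 libraries had 4 of the 8 above. Pearson's r between log2(CPM + 1) of members ran from 0.53 to 0.93 over the 28 pairs (median 0.77) and Spearman's rho from 0.47 to 0.95 (median 0.77). The highest permutation p was 0.00247 for r and 0.00863 for rho, which are also the highest after Benjamini-Hochberg adjustment over the 28 pairs, and the lowest was 1e-05, the smallest that 1e+05 resamples can give. Over the 87571 pairs of tested miRNAs the median r was -0.00087 and the 95th percentile 0.44, so that each pair of members was above that percentile. The members of a pair share a library and its scaling. Whether members of similar sequence also share reads was not tested. On total counts without TMM factors the median r was 0.79.

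**Figure D3:**
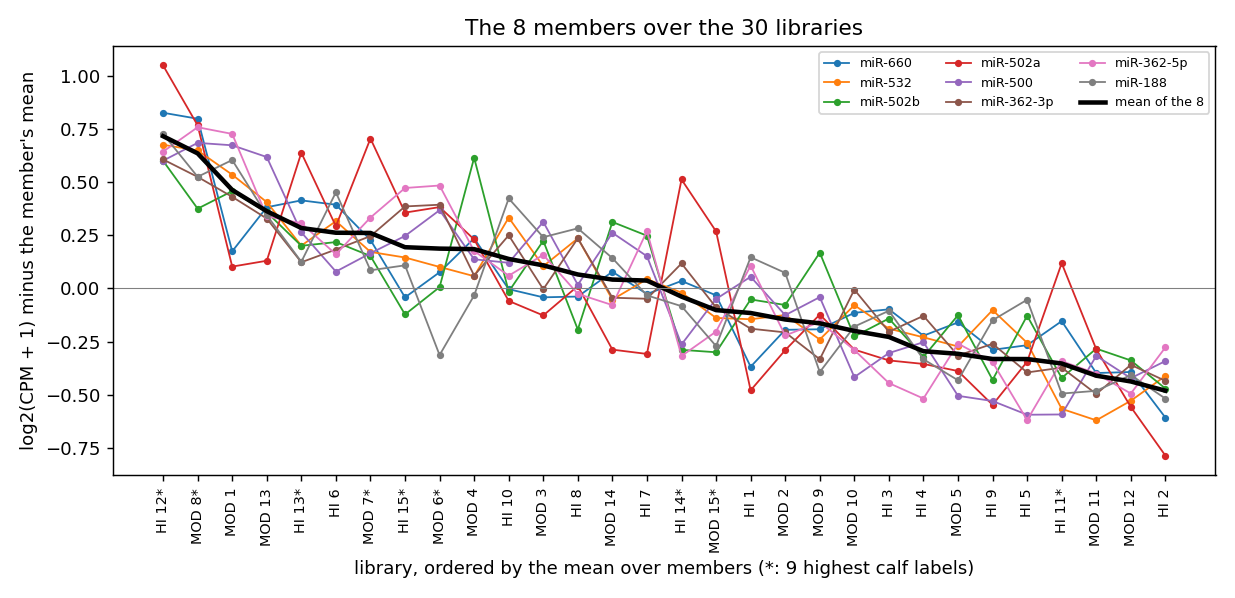
Deviation of each member from its own mean on the log2(CPM + 1) scale (coloured lines) and the mean of the 8 (black) in the 30 libraries, ordered by that mean, with an asterisk for the 9 libraries with the highest calf labels. The members follow the mean from 0.72 in HI replicate 12 to -0.48 in HI replicate 2, and miR-502a is the member farthest above it in several of the libraries with an asterisk.

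The correlation was also present within each group of libraries. The median r over the 28 pairs was 0.79 among HI calves, 0.79 among MOD calves, 0.77 within the 21 libraries and 0.90 within the 9. The libraries with the highest sums of the cluster, HI replicate 12 and MOD replicate 8, are both among the 9. Values of r within the 9 can rest largely on them and were not computed without them. With the 2 libraries farthest from the median of the first member left out of each pair, the median was 0.72 and the range 0.39 to 0.91. The closest pairs were miR-532 with miR-362-3p (r = 0.93), miR-362-5p with miR-500 (r = 0.92) and miR-532 with miR-188 (r = 0.91). The genes of the latter pairs are next to each other in the annotation, whereas MIR532 and MIR362 have MIR188, MIR502A-2 and MIR502B between them. The arms of miR-362 had r = 0.86. The pair farthest apart was miR-188 with miR-502a (r = 0.53), followed by miR-502a with miR-502b (r = 0.54). The genes of these pairs are neighbours too, as MIR502A-2 lies between MIR188 and MIR502B. The other gene of miR-502a, MIR502A-1, follows MIR660, and miR-502a with miR-660 had r = 0.86. For miR-188 with miR-502a r was 0.69 within the 21 libraries and 0.92 within the 9. For miR-502a with miR-502b it was 0.77 and 0.93, so that both pairs were above their pooled values within each set. The lowest r within the 21 was that of miR-188 with miR-502b (0.60).

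A calf from each diet had the highest levels of the whole cluster. In HI replicate 12 and MOD replicate 8 the sums were 21111 and 20662 CPM, and in both all 8 members ranked among the 6 highest libraries. The next sum was 15832 CPM, in MOD replicate 13. At the other end HI replicate 2 (8163 CPM), MOD replicate 11 (8983 CPM) and MOD replicate 12 (9081 CPM) had the lowest sums, and in MOD replicate 12 all 8 members were among the 6 lowest libraries. Both diets thus stood at either end, and the sum averaged 12264 ± 3205 CPM on HI and 12632 ± 2966 CPM on MOD (SD over 15 calves). Without HI replicate 12 and MOD replicate 8 the median r was 0.70. The mean deviation of the 8 had r = -0.22 with log2 total reads and r = 0.19 with the log2 TMM factor over the 30 libraries (Spearman's rho -0.37 and 0.17), given as a description. By the 4 ranges into which the last digits of the calf labels fall, the median sum was highest at 14422 CPM in the range of 3 calves and lowest at 10927 CPM in that of 16, and with the range as a block the lowest FDR for diet among the members was 0.861.

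Single members varied about as much as most tested miRNAs or somewhat more. Their coefficients of variation were 22.5% to 34.0%, beside a median of 19.8% over the 419 tested miRNAs, and the highest, that of miR-502a, was above 82.6% of them.

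The 9 libraries with the highest calf labels differed from the other 21 in 4 of the 8 members at FDR < 0.1, all higher in the 9, with diet in the limma model. Over the 419 miRNAs 109 passed, or 26%, and 49, or 11.7%, were higher in the 9. The median log2 difference of the 8 was 0.28, beside -0.02 over all. Since the boundary was placed on values of miR-99b from the same libraries, this is a description of the libraries. The 4 were miR-502a, which rose by 0.77 (95% interval 0.55 to 0.99, FDR = 5.39e-06), miR-660 by 0.35 (FDR = 0.0279), miR-362-3p by 0.31 (FDR = 0.0529) and miR-362-5p by 0.35 (FDR = 0.0790). Without HI replicate 12 the 4 became 2, miR-502a and miR-660, and so they did without MOD replicate 8. Without both only miR-502a passed (log2 difference 0.66, FDR = 0.000112). In that same comparison both endocrine markers were higher in the 9 libraries, miR-375 by 0.37 (FDR = 0.000463) and miR-7 by 0.25 (FDR = 0.0817), and the sum of that list was at 159431 to 212047 CPM in the 9 and at 119220 to 191519 CPM in the 21. Of the neural list 1 of 3 tested miRNAs, miR-128, was higher in the 9 (by 0.38, FDR = 0.00457). The others did not pass, with miR-138 at -0.17 (FDR = 0.307) and miR-9-5p at 0.07 (FDR = 0.866). The sum of the neural list was at 524 to 1039 CPM in the 9 and at 427 to 684 CPM in the 21. The most abundant of that list was miR-128, with a median of 450 CPM over the 30 libraries, beside 92.9 CPM for miR-138 and 25.7 CPM for miR-9-5p. The part of these markers in the difference of the members was not tested.

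The level of miR-502a was 87.5 CPM in the lowest, 115 in the median and 168 in the highest of the 9 libraries, and 46.2, 65.7 and 98.8 CPM in the 21. A total of 7 of the 9 lay above the highest of the 21, so a small overlap remained. The level of miR-502b was 78.1, 105 and 160 CPM in the 9 and 75.4, 99.4 and 161 CPM in the 21, with a log2 difference of 0.05 (-0.20 to 0.29, FDR = 0.831). The pair was set side by side after its values had been seen, and the ratio is a description with no test. The ratio of miR-502a to miR-502b was 0.998 to 1.34 (median 1.07) in the 9 libraries and 0.503 to 0.885 (median 0.656) in the 21, without overlap. Of the 28 ratios between members this was the only 1 that did not overlap between the sets, and among the 87153 ratios between the 418 tested miRNAs above 0 in every library 948 did so, or 1.09%. By diet the same ratio was 0.519 to 1.34 (median 0.748) in HI and 0.503 to 1.14 (median 0.656) in MOD libraries. Each of the 5 HI and 4 MOD libraries of the set was above all of the 21.

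**Figure D4:**
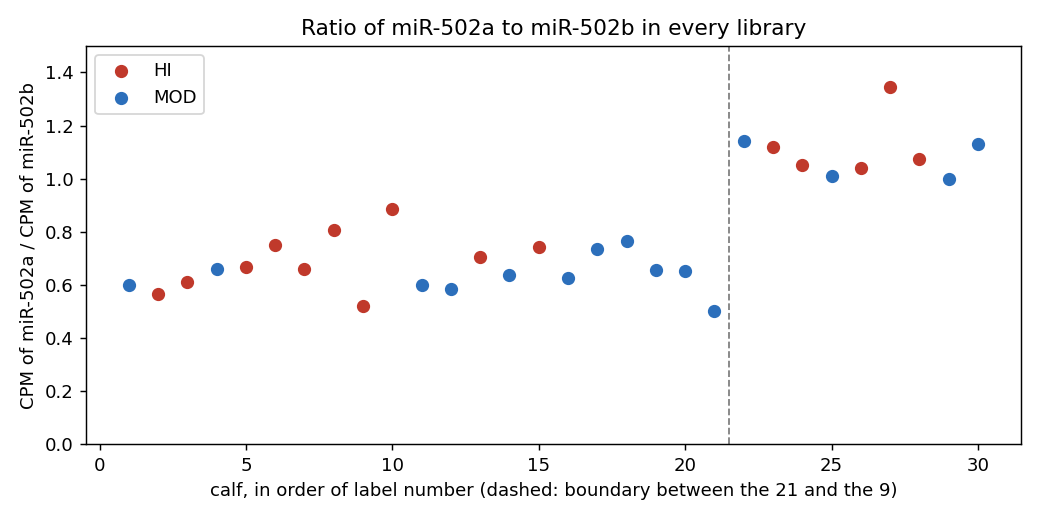
Ratio of the CPM of miR-502a to that of miR-502b in each library, with the 30 calves in the order of their label numbers, HI in red and MOD in blue, and a dashed line between the 21 and the 9. The ratio is at most 0.885 left of the line and at least 0.998 right of it, for HI and MOD calves alike.

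The other miRNAs whose levels followed the members most closely came mostly from another X-linked cluster. By the mean Pearson r with the 8 members over the 30 libraries, the first 5 of the 411 other tested miRNAs were miR-424-5p (mean r = 0.78, range over members 0.65 to 0.89), miR-503-3p (0.73), miR-542-5p (0.71), miR-450b (0.70) and miR-874 (0.70). The mean r among the members was 0.77, and the median over the 411 was -0.04. The miR-424 and miR-503 cluster, known for its part in the cell cycle and in differentiation, includes the first 4, whereas miR-874 is not on the list of X-linked miRNAs. Within the 21 libraries the mean r of these 5 was 0.54 to 0.69 and within the 9 it was 0.80 to 0.90. Without HI replicate 12 and MOD replicate 8, both among the 9, the mean r over all remaining libraries was 0.56 to 0.71. The levels differ widely, from a median of 14.6 CPM for miR-503-3p to 1210 CPM for miR-424-5p, and none of the 5 passed FDR < 0.1 for diet (lowest FDR = 0.734).

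**Figure D5:**
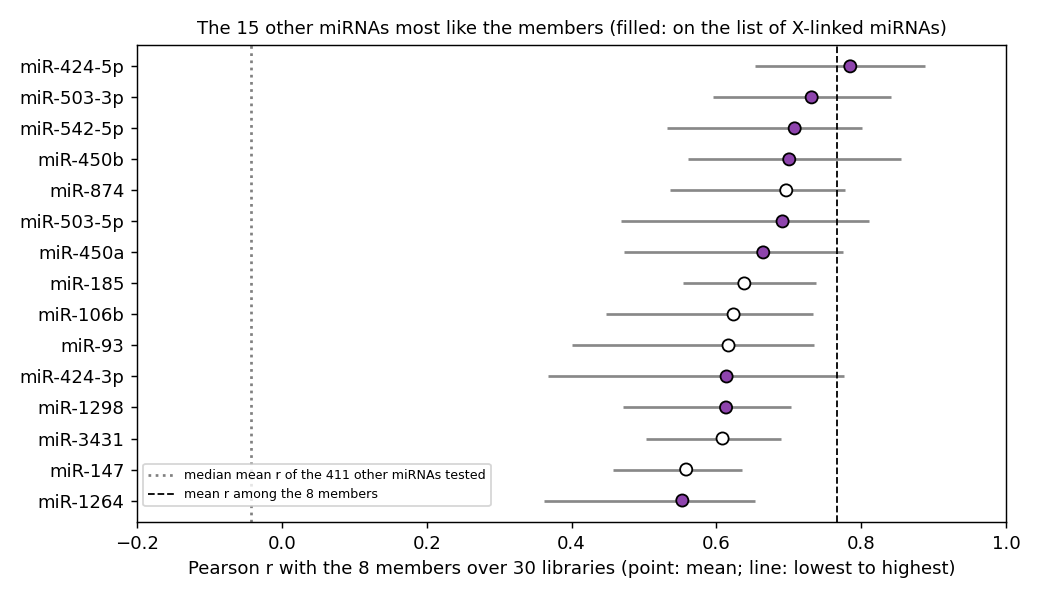
Pearson r over the 30 libraries between the 8 members and the 15 other miRNAs with the highest mean r (point for the mean, line from the lowest to the highest member), with filled points for miRNAs on the list of X-linked miRNAs, a dashed line at 0.77 for the members among themselves and a dotted line at -0.04 for the median of the 411 others. Of the first 15, 9 are filled, and miR-424-5p at 0.78 is level with the members themselves. The filled points include both arms of miR-424 and of miR-503, with miR-542-5p, miR-450a and miR-450b of the same cluster.

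Other X-linked miRNAs differed widely in how they followed the members. Of 28 tested on a list of 32, mean r with the members ran from -0.48 for miR-361, hosted by CHM, to 0.78 for miR-424-5p. The median was 0.14, beside -0.04 over the 411, and 9 of the 28 were among the first 15 of the 411. Apart from miR-1298 and miR-1264, these 9 belong to the miR-424 and miR-503 cluster. The neighbours miR-221 and miR-222, which restrain the cell cycle inhibitor p27, had mean r of -0.38 and -0.33. For diet 0 of the 28 passed FDR < 0.1 and their median log2 fold change was 0.05. Between the sets 5 of the 28 passed FDR < 0.1 as higher and 5 as lower in the 9 libraries, beside the 26% of all tested miRNAs that passed in either direction. Cell type markers had lower mean r with the members than the members had among themselves. The median mean r was -0.02 for red blood cell, -0.08 for white blood cell, -0.0080 for stromal and 0.24 for endothelial miRNAs. Of the endothelial markers miR-126-3p had 0.36 and miR-126-5p 0.12. The endocrine markers had 0.28 (miR-375) and 0.35 (miR-7), and the single surface epithelium marker, miR-205, had 0.20. Muscle and neural lists gave -0.26 and 0.18.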

How the data were processed

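Small RNA libraries of 30 anterior pituitaries (15 HI and 15 MOD) were analysed. Per the labels and the methods, the authors trimmed reads with Cutadapt (version 2.6 in the submitters' processing notes), filtered them by length and against other RNA classes, and counted bovine mature miRNAs with miRDeep2 (build ARS-UCD1.2). What they deposited is a signal, CPM after edgeR's TMM scaling. Dividing by the smallest step in each library gave reads, of which 94.8% or more per library lay within 0.001 of a whole number among values up to 200 reads. This was tested on simulated data. The edgeR quasi-likelihood test on them called 20 of 419 miRNAs for diet at FDR < 0.1. The limma test (version 3.58.1, R 4.3.3, eBayes with trend) was run on log2(CPM + 1), a scale that understates changes of low miRNAs, for the 419 miRNAs that passed filterByExpr of edgeR 4.0.16 on the recovered reads. Thresholds were FDR < 0.1 and fold change > 1.5. edgeR's quasi-likelihood and exact tests and DESeq2 1.42.0 on rounded recovered reads were alternatives, with other scalings, filters, blocks and calves left out. Single ratios were compared with permutation tests (SciPy 1.17.1).

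The members and the lists (X-linked and cell type miRNAs, written from general knowledge) were chosen with earlier results of these data known. Named were all members and the 5 most alike miRNAs; others were named after their values were seen. Mature sequences were not used here, so miRNAs with a shared seed were not sought. The RefSeq table of ARS-UCD2.0, another build, served for gene names and order only. Replicate numbers follow the order of the records.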

Additional observations from a re-analysis of the deposited data

How the results depend on the processing

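All settings below compare HI with MOD calves unless stated. No paired analysis was possible because no number in the labels is common to an HI and a MOD calf. The number of members past FDR < 0.1, with or without the fold change threshold, was 0 in all 12 other settings (lowest FDR = 0.176, for miR-502b with upper quartile factors) and in each of 30 fits with 1 calf omitted (lowest FDR = 0.324). Of the uncalled differences, those of miR-362-5p (-0.21 to -0.05), miR-500 (-0.28 to -0.12) and miR-502b (-0.27 to -0.06) kept their sign in all 42 fits, and those of the other 5 members changed sign in at least 1. The 42 fits reuse the same calves and are not independent, so a kept sign adds little to the main fit. With total counts in place of TMM the log2 fold change was 0.044 for miR-362-3p, 0.031 for miR-502a and 0.0038 for miR-660, and with upper quartile factors it was -0.030 for miR-188 and -0.10 for miR-532; these scalings moved the median of all 419 miRNAs to 0.07 and -0.07. For miR-502a it was 0.016 in edgeR's quasi-likelihood test, 0.016 in its exact test and 0.0042 in the 9 libraries alone. For miR-532 it was -0.011 in DESeq2, -0.0087 with a block for the 9 libraries and -0.11 in the 9 libraries alone. Across the fits that left out 1 calf it ran from -0.062 to 0.019 for miR-362-3p, from -0.11 to 0.023 for miR-502a and from -0.044 to 0.051 for miR-532. The difference in the arm ratio of miR-362 ran from -0.13 to -0.07 when 1 calf was left out, with p from 0.0862 to 0.312.

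The number of members past FDR < 0.1 between the 9 and the 21 libraries was 4. It ran from 2 to 4 when 1 calf was left out and was 1 without HI replicate 12 and MOD replicate 8, a setting chosen after seeing the data; with log2 total reads as a covariate it was 6, and on total counts or with upper quartile factors 3. The median r over pairs of members was 0.90 in the 9 libraries alone, which include HI replicate 12 and MOD replicate 8, against 0.77. Beyond the libraries left out, the cause was not tested.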
